A study of Mus musculus with 6 samples.

Results

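Interferon-stimulated genes were followed in mouse haematopoietic stem cells with and without Hlf, a transcription factor gene of the PAR bZIP family. The set holds 44 genes, chosen by name as interferon-induced effectors, sensors and signalling factors, out of 23574 gene features counted. All 44 were listed in the files. Of these, 36 had enough counts to be tested, among 10204 tested genes.

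The HLF KO group held 3 libraries from Hlf knockout mice, and the WT group held 3 libraries from wild-type littermates. All mice were of the C57BL/6 strain. The cells were freshly sorted as Lin-, Sca+, c-Kit+, CD34- and Flt3-, with 3000 cells for each library, and total RNA was sequenced after a TruSeq preparation. The labels do not give the animals' age, the allele of the knockout or whether each library came from its own animal, and the p-values below may therefore reflect technical spread alone. The question was how loss of Hlf alters expression in these cells.

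Interferons are secreted alarm signals of infection. Type I interferons bind a receptor made of Ifnar1 and Ifnar2 and activate a complex that includes STAT2 and IRF9, which binds the interferon-stimulated response element (ISRE) in the promoters of target genes. Interferon gamma acts at another element, the gamma-activated site (GAS). The induced genes block virus entry, sense or degrade foreign RNA and tag proteins. In mice, interferon treatment is known to drive quiescent stem cells into division, and stem cells are known to express some of these genes without treatment.

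Promoter stretches are shown for the genes on which the results turn, with any matches to the ISRE or the GAS marked. Each is the 120 bases before a RefSeq start site, 5′ to 3′, from a table of build GRCm38.p6. Capitals mark matches to an ISRE core (GAAA, any 2 bases, then GAAA, on either strand) or to a GAS (TTC, any 3 bases, then GAA, the same on both strands). Overlapping matches appear as 1 longer run of capitals. Irgm1, which is discussed first among the GTPases, lies at chr11:48871421-48871540 on the minus strand.
Irgm1: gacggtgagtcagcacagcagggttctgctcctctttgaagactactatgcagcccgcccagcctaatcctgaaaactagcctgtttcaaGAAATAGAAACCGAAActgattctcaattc
Its relatives Igtp (chr11:58199436-58199555, plus strand) and Irgm2 (chr11:58214857-58214976, plus strand) are shown beside it. Irgm1 and Irgm2 differed in direction, and the value of Igtp was within the spread. Irgm2 is not one of the 44 genes.
Igtp: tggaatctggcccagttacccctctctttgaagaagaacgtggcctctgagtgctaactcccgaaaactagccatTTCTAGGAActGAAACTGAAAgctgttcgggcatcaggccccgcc
Irgm2: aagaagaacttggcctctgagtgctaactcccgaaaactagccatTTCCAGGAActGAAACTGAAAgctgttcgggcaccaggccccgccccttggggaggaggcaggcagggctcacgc
Isg15 (chr4:156200819-156200938, minus strand) is shown for its 3 overlapping ISRE cores, Irf1 (chr11:53769894-53770013, plus strand) for its GAS, Ifitm2 (chr7:140955962-140956081, minus strand) as one of the most abundant genes, and Oasl2 (chr5:114896814-114896933, plus strand) as the gene of second smallest p, with no match in this window. Another Irf1 start site, with chr11:53770353-53770472 before it, had 0 matches in its promoter and is not printed.
Isg15: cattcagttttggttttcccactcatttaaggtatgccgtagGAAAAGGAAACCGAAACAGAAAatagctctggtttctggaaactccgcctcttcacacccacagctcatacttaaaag
Irf1: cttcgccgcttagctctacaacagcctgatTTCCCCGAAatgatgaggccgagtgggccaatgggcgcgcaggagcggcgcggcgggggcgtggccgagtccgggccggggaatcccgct
Ifitm2: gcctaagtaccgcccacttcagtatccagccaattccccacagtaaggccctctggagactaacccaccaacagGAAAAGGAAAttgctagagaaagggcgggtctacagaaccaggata
Oasl2: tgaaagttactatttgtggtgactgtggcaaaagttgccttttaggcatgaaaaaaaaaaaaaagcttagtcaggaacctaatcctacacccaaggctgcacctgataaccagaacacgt

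The table held a promoter, 250 bases before to 50 after the start, for 34 of the 44 genes. An ISRE core was found for 19 of these 34 genes, or 55.9%, against 3.99% of all 27025 genes in the table. A GAS was found for 11 of them, or 32.4%, against 9.55% of all genes, and 6 genes had both. In 15 of the 19 genes an ISRE core lay wholly before the start site, and in Ifitm3, Eif2ak2, Ddx58 and Ifih1 it lay only in the first bases after it. The 18 tested genes with an ISRE core had a median log2 fold change of -0.04, with 8 above 0, and the 10 tested genes without one had a median of 0.01, with 5 above 0. Upstream of their start sites Igtp and Irgm2 were alike in 87 of 90 bases that could be laid side by side.

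Library depth was 10182464 to 11998296 counts in HLF KO and 8346335 to 9902102 in WT, so every HLF KO library was the deeper. Hlf itself had 309, 399 and 431 counts in HLF KO libraries 1 to 3, against 10768, 15982 and 10055 in WT libraries 1 to 3, in accord with the labels. Of 12 stem cell genes, the 11 other than Hlf summed to 323 to 417 CPM (counts scaled to library size) in HLF KO libraries and to 495 to 659 CPM in WT libraries. Of the 9 of these that were tested, 3 were positive and 6 negative in log2 fold change, Mecom and Procr being lower and Ctnnal1 higher in every HLF KO library. WT library 1 had the fewest detected features, 10796 against 11341 to 12331 in the other libraries. WT library 3 stood apart by genes of other cells. The 11 granulocyte and monocyte genes summed to 328 to 488 CPM in HLF KO libraries and to 634, 638 and 3385 CPM in WT libraries 1 to 3, with S100a9 at 0 throughout. The 5 plasma cell genes summed to 104 to 257 CPM in HLF KO libraries and to 668 to 5583 CPM in WT libraries. Jchain alone held 92.9 to 235 CPM in HLF KO and 562 to 5074 CPM in WT, and Xbp1 was at 0. Sdc1 and Pou2af1 were also lower in every HLF KO library, and Mzb1 overlapped. The 12 T and NK cell genes summed to 347 to 632 CPM in HLF KO libraries and to 133 to 264 CPM in WT libraries, with Cd8a and Klrb1c at 0. Nkg7 alone held 254 to 463 CPM in HLF KO and 71.4 to 156 CPM in WT, and without it the sums overlapped, at 92.7, 108 and 169.5 CPM in HLF KO and 153, 107.5 and 35.2 CPM in WT. Ccl5 and Cd3g were also higher in every HLF KO library, and Cd4 was lower. Megakaryocyte genes summed to 754 to 1016 CPM in HLF KO libraries and to 420 to 615 CPM in WT libraries, without overlap. Erythroid genes summed to 409 to 476 CPM in HLF KO libraries and to 240 to 328 CPM in WT libraries, again without overlap. The 9 genes of plasmacytoid dendritic cells, a main source of type I interferon, summed to 11.9 to 14.0 CPM in HLF KO libraries and to 9.0, 35.2 and 109 CPM in WT libraries 1 to 3, with Ly6d at 78.9 CPM in WT library 3. Of these genes Siglech had 1 count in all, and Ccr9, Klk1 and Pacsin1 were at 0, Ccr9 and Pacsin1 with several listed transcripts. The part of these differences in the results below was not tested. Bulk RNA also cannot tell fewer cells of a type from less RNA per cell.

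None of the 36 tested genes changed between HLF KO and WT by edgeR's quasi-likelihood test (0 genes with a Benjamini-Hochberg adjusted p under 0.05, smallest adjusted p = 0.653). Over all tested genes that test called 0.0098%, which was Hlf alone. At an unadjusted p under 0.05 by edgeR, 2 of the 36 genes were called, against 7.27% of all tested genes. Both had higher values in HLF KO (2.63% of all tested genes), and 0 had lower values (4.65% of all tested genes). DESeq2 called 0 of the 36 (it gave no adjusted p for Ifih1, Irf1 and Iigp1) and 1.18% of all genes, with 2 of the 36 at an unadjusted p under 0.05 (10.3% of all genes). Limma-voom called 0 of them (0.0098% of all genes), with 3 at an unadjusted p under 0.05 (8.11% of all genes). The genotypes did not overlap in CPM for 2 genes higher in HLF KO (Irgm1 and Eif2ak2) and for 2 lower (Ddx58 and Trim30a), against 7.52% and 6.85% of all tested genes. The median log2 fold change, HLF KO over WT, was -0.07 over the 36 genes and -0.05 over all tested genes, with 15 of the 36 positive (47.2% of all tested genes) and 21 negative. Under limma-voom 22 and under a replicate block 20 of the 36 were positive, with the median of all tested genes at 0.06 in both fits. Without WT library 2, 24 of the 36 were positive and their median was 0.22, against -0.005 over all tested genes. The mean log2 CPM of the 36 genes had the opposite sign of difference, at 5.598 ± 0.112 in HLF KO and 5.417 ± 0.394 in WT (SD, n = 3 each). That of all tested genes was also higher in HLF KO, at 4.707 ± 0.023 against 4.639 ± 0.168 in WT. The standard errors of the 36 log2 fold changes had a median of 0.46, against 0.59 for all tested genes.

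**Figure D1:**
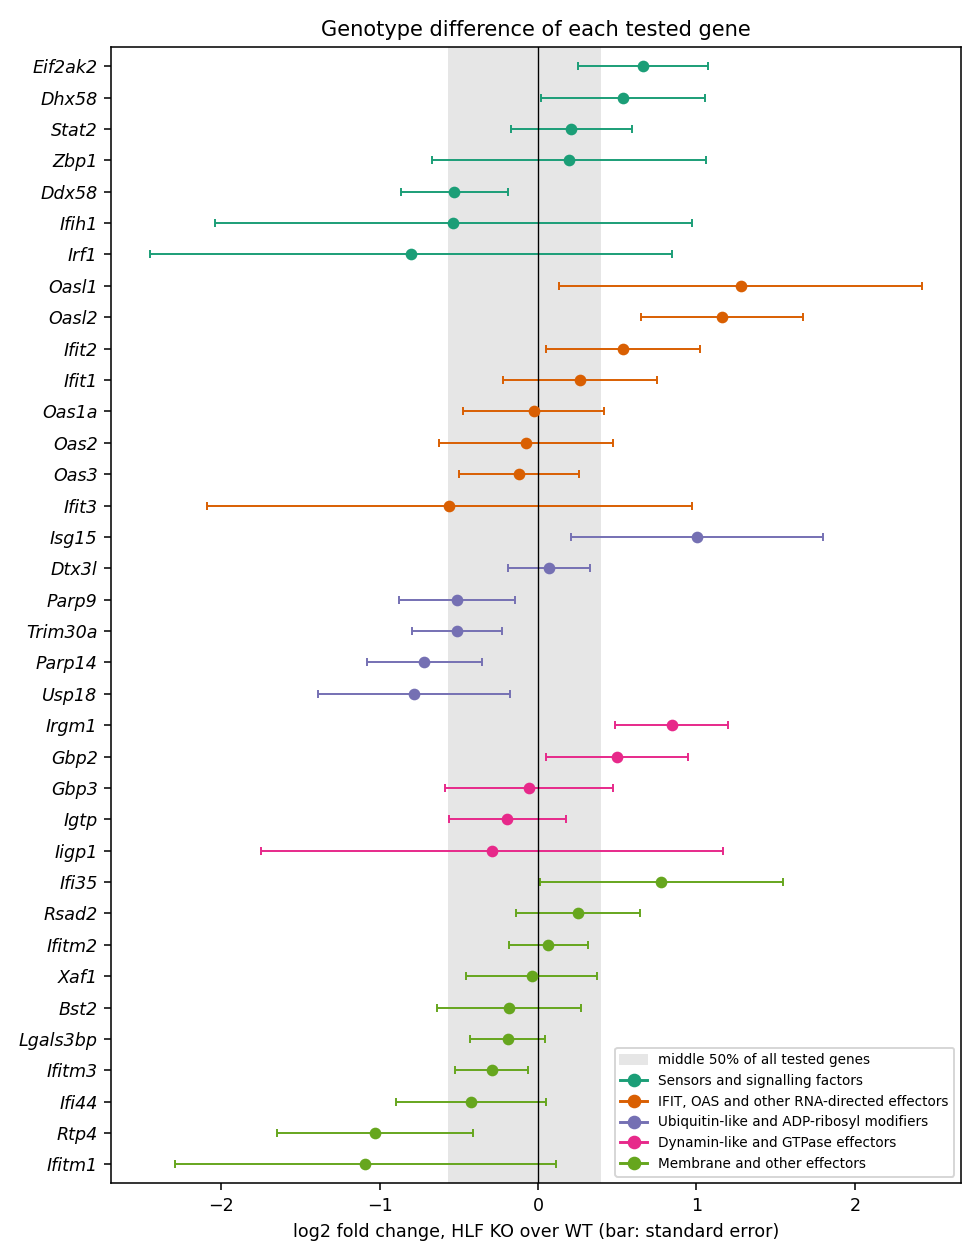
Log2 fold change of each tested interferon-stimulated gene, HLF KO over WT, with its standard error, coloured by role. The grey band spans the 25th to 75th percentile of all tested genes, from -0.56 to 0.39, and the genes lie on both sides of 0, from Ifitm1 at -1.09 to Oasl1 at 1.28.

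WT library 2 most often held the highest value of a gene, and WT library 1 the lowest. WT library 2 was the highest of the 6 libraries for 16 of the 36 genes, or 44.4% (20.6% of all tested genes), and WT library 1 was the lowest for 13, or 36.1% (28.3% of all tested genes). WT library 3 was the lowest for 10 genes, or 27.8% (12.5% of all tested genes), and WT library 2 for 3 (20.4% of all tested genes). The highest value lay in WT library 1 for 3 genes and in WT library 3 for 2 (24.3% and 15.3% of all tested genes). It lay in HLF KO library 3 for 8 genes (13.7% of all tested genes). The median coefficient of variation was 29.2% in HLF KO and 41.8% in WT. It was larger in WT for 63.9% of these genes, and for 69.8% of all tested genes. The HLF KO libraries 1, 2 and 3 had mean log2 CPM of 5.57, 5.51 and 5.72 over the set, and the WT libraries 5.07, 5.84 and 5.34. The HLF KO libraries thus lay inside the range of the WT libraries.

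**Figure D2:**
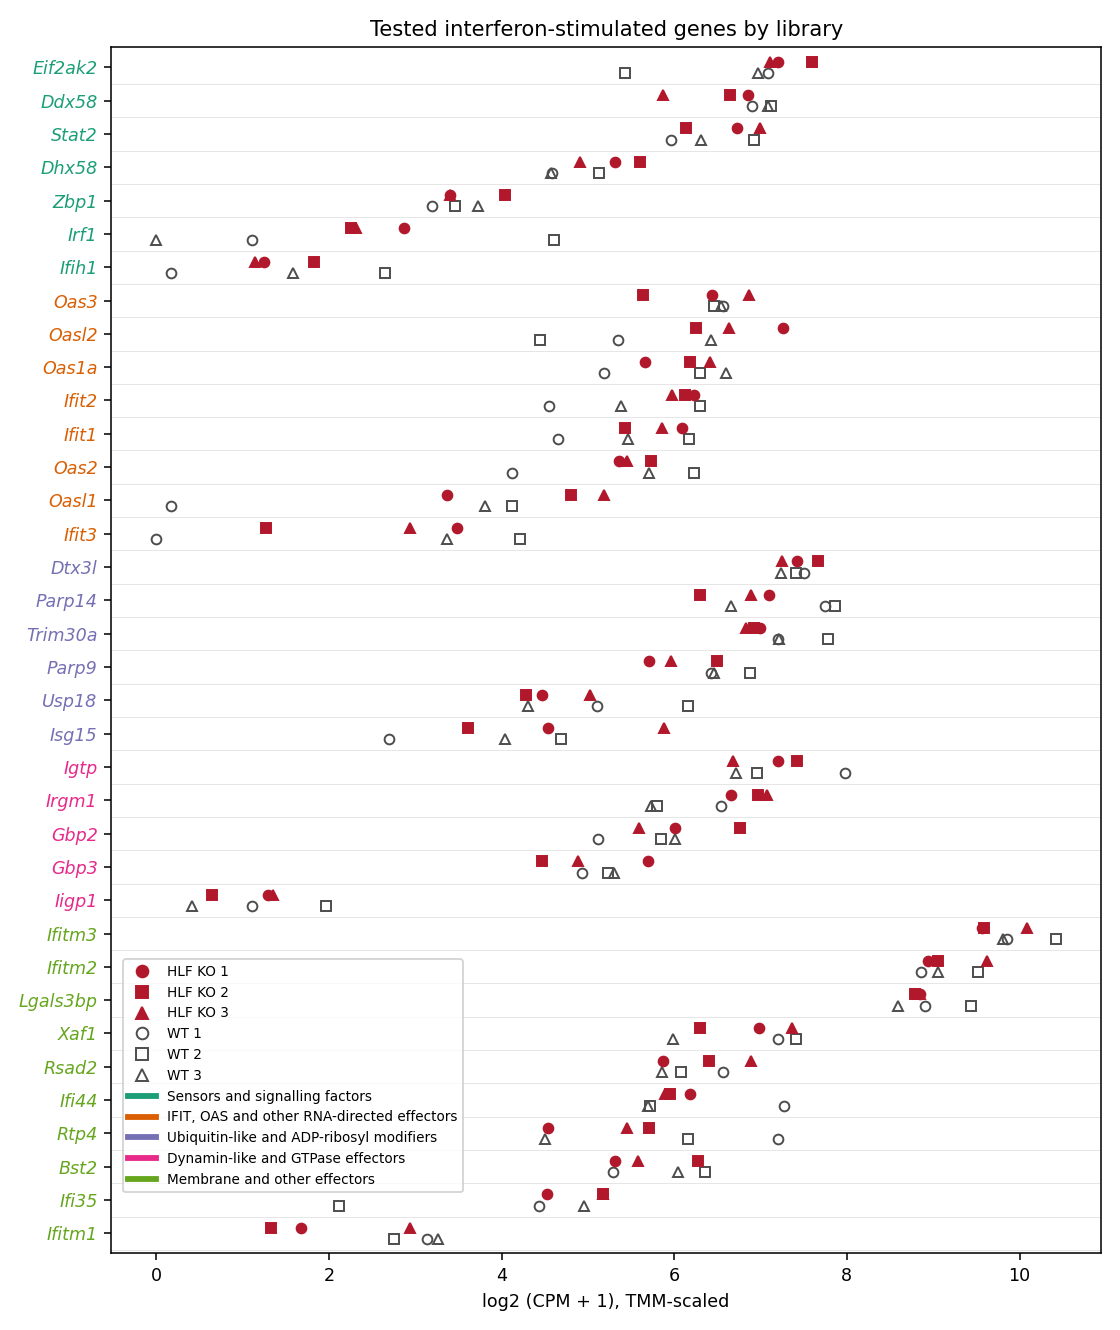
Level of each tested gene in each library as log2 of CPM plus 1, with filled red symbols for the HLF KO libraries and open grey symbols for the WT libraries, and gene names coloured by role. The genotypes interleave in most rows, Ifitm3, Ifitm2 and Lgals3bp stand highest, and WT library 1 (open circles) lies far left for Ifit3, Oasl1 and Isg15.

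Membrane effectors were the most abundant part of the set. Ifitm3 and Ifitm2 encode small membrane proteins that keep viruses from fusing with the cell. Per kilobase of transcript, Ifitm3 averaged 1425 CPM, rank 73 of 10021 tested genes with a length, Ifitm2 averaged 900 CPM (rank 96) and Lgals3bp, a secreted glycoprotein that binds galectins, averaged 209 CPM (rank 272). Of the 36 genes, 28 lay above the median level of tested genes, 12.8 CPM per kilobase. The next in order were Igtp (74.0 CPM per kilobase), Bst2 (72.8), Xaf1 (47.8), Irgm1 (41.1), Trim30a (38.6), Rtp4 (37.6), Oas1a (36.7), Dtx3l (32.1) and Isg15 (30.3). Neighbours in this order from Igtp onwards differed by less than the SD between libraries, apart from the step from Bst2 to Xaf1, which was 24.95 CPM per kilobase against an SD over the 6 libraries of 23.99 for Bst2 and 17.29 for Xaf1.

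Ifitm3 had 757, 768 and 1082 CPM in HLF KO libraries 1 to 3, against 922, 1372 and 895 CPM in WT libraries 1 to 3. The ranges overlap, with WT library 2 highest, and the fitted log2 value was -0.29 (SE 0.23, edgeR adjusted p = 0.799). Ifitm2 had 492, 532 and 785 CPM in HLF KO libraries, against 464, 734 and 531 CPM in WT libraries. Its log2 fold change of 0.07 (SE 0.25) was within the spread, and it turned to -0.16 without HLF KO library 3. Ifitm1, with 2 listed transcripts and few counts, had 24, 16 and 77 counts in HLF KO libraries, against 61, 55 and 78 in WT libraries. It had the lowest log2 fold change of the set, -1.09 (SE 1.20). Reads shared among these neighbouring chromosome 7 genes could have been split by the counting.

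Lgals3bp had 460, 442 and 459 CPM in HLF KO libraries, against 478, 691 and 386 CPM in WT libraries, so the knockout values lay close together inside the WT range. Bst2 encodes tetherin, which holds budding viruses at the cell surface. It had 38.7, 76.3 and 46.9 CPM in HLF KO libraries and 38.0, 81.0 and 64.9 CPM in WT libraries, a log2 fold change of -0.19 (SE 0.45). Xaf1, an antagonist of the apoptosis inhibitor XIAP, had 126, 77.5 and 164 CPM in HLF KO libraries and 146, 169 and 62.6 CPM in WT libraries. Rtp4, a chaperone of membrane receptors, had 22.3, 51.3 and 42.9 CPM in HLF KO libraries, against 146, 70.5 and 21.6 CPM in WT libraries. The Rtp4 value rested on WT library 1, with a log2 fold change of -1.03 (SE 0.62) over all libraries and -0.23 without it. Ifi44 likewise had 154 CPM in WT library 1, against 50.8 to 71.7 CPM in the other 5 libraries, and its log2 fold change turned from -0.42 to 0.33 without WT library 1. Rsad2 (viperin, which makes a chain-ending nucleotide) stood at a log2 fold change of 0.25 (SE 0.39), and Ifi35 at 0.78 (SE 0.76), or 0.30 without WT library 2, in which it had 3.33 CPM. Tap1, the peptide transporter of antigen presentation, was listed at 0.

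The GTPases held the gene of smallest p. Irgm1 encodes an immunity-related GTPase that regulates vacuole attack and autophagy, and mice without it are known to lose stem cell function. It had 99.7, 124 and 134 CPM in HLF KO libraries 1 to 3, against 92.4, 54.7 and 52.2 CPM in WT libraries 1 to 3. Every HLF KO library was above every WT library, with the nearest pair HLF KO library 1 and WT library 1. On the log2 scale the difference was 0.84 (SE 0.36), or 1.80-fold, with an unadjusted p of 0.0366 and an edgeR adjusted p of 0.653. With 1 library left out the log2 fold change was 0.70 to 1.17 and the unadjusted edgeR p was 0.00471 to 0.112. Igtp (Irgm3), of the same family, had 147, 171 and 102 CPM in HLF KO libraries and 252, 124 and 104 CPM in WT libraries. Its log2 fold change of -0.19 (SE 0.37) was within the spread and turned to 0.31 without WT library 1.

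Irgm2, the third gene of this group, went the other way from Irgm1. It had 107, 138 and 77.8 CPM in HLF KO libraries, against 273, 218 and 173 CPM in WT libraries. All HLF KO values were below all WT values, with a log2 fold change of -1.04 (SE 0.31, edgeR adjusted p = 0.466). Whether reads of Irgm2 and its relative Igtp were lost or exchanged in counting was not tested. Of the guanylate-binding proteins, which also act on vacuoles, Gbp2 stood at a log2 fold change of 0.50 (SE 0.45) and Gbp3 at -0.06 (SE 0.53). Gbp7 had 1 count in all and Iigp1 had 3 to 28 counts per library, both with 2 listed transcripts. Mx1, a dynamin-like block to virus replication whose gene is known to be defective in most laboratory strains, had 1 count in all, and Mx2 had 0.

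**Figure D3:**
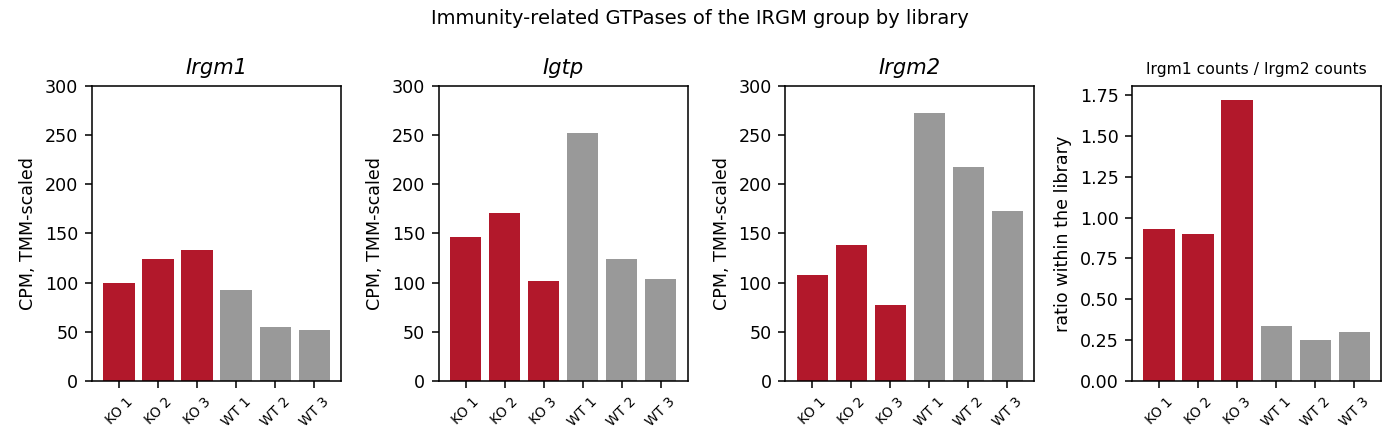
CPM of Irgm1, Igtp and Irgm2 in each library, on a common axis, and the count of Irgm1 divided by that of Irgm2 in the same library. Red bars are HLF KO libraries and grey bars WT libraries. Irgm1 is higher and Irgm2 lower in every HLF KO library, and the ratio is 0.90 to 1.72 in HLF KO and 0.25 to 0.34 in WT.

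Sensors and signalling factors had 4 positive and 3 negative values among 7 tested of 9. Eif2ak2 encodes PKR, the kinase that halts translation on meeting double-stranded RNA. It had 146, 193 and 137 CPM in HLF KO libraries, against 134, 42.0 and 125 CPM in WT libraries. The genotypes did not overlap, though HLF KO library 3 and WT library 1 differed by little. The log2 fold change of 0.66 (SE 0.41, edgeR adjusted p = 0.741) was 0.30 without WT library 2. Ddx58, the RNA sensor RIG-I, had 114, 99.1 and 57.7 CPM in HLF KO libraries, against 118, 138 and 134 CPM in WT libraries. Again the groups did not overlap, with a log2 fold change of -0.53 (SE 0.34, edgeR adjusted p = 0.744), and -0.28 without HLF KO library 3. Its regulator Dhx58 (LGP2) had the opposite sign at 0.54 (SE 0.52), with 29.1 to 47.8 CPM in HLF KO libraries and 22.7 to 33.9 CPM in WT libraries.

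Stat2, a subunit of the type I interferon complex, had 105, 69.3 and 126 CPM in HLF KO libraries, against 61.6, 120 and 78.1 CPM in WT libraries, a log2 fold change of 0.21 (SE 0.38). Zbp1, a sensor of left-handed nucleic acids, stood at 0.19 (SE 0.86). Irf1 had 69, 40 and 46 counts in HLF KO libraries, against 9, 225 and 0 counts in WT libraries. WT library 2 alone held most Irf1 counts of its group, and the log2 fold change of -0.80 (SE 1.65) became 3.02 without that library. Irf1 has 3 listed transcripts. So do Irf7, at 0 in every library, and Irf9, with at most 19 counts, so the levels of these factors cannot be read here. The RNA sensor Ifih1 (MDA5), with 2 transcripts, had 14 to 27 counts in HLF KO libraries and 1 to 51 in WT libraries.

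Among the effectors that act on RNA, the Oasl genes had the largest positive log2 fold changes. Oasl2 encodes an oligoadenylate synthetase-like protein. It had 152, 75.4 and 98.2 CPM in HLF KO libraries 1 to 3, against 39.7, 20.7 and 85.1 CPM in WT libraries 1 to 3. The groups overlap, since WT library 3 exceeded HLF KO library 2. On the log2 scale the difference was 1.16 (SE 0.51), or 2.24-fold, with an unadjusted p of 0.0439 and an edgeR adjusted p of 0.677. It was 0.81 without WT library 2 and 1.85 without WT library 3, with an unadjusted edgeR p of 0.00498 to 0.19 over the libraries left out. Oasl1 stood at 1.28 (SE 1.15), with 9.33, 26.8 and 35.3 CPM in HLF KO libraries and 0.13, 16.3 and 12.96 CPM in WT libraries.

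The synthetases proper, which make the messenger that activates RNase L, had values near 0. Oas1a had 49.7, 71.8 and 84.2 CPM in HLF KO libraries and 35.5, 77.7 and 96.1 CPM in WT libraries, a log2 fold change of -0.03 (SE 0.45). Oas2 stood at -0.08 (SE 0.55) and Oas3 at -0.12 (SE 0.38). The Ifit genes, whose products bind foreign RNA ends, were lowest in WT library 1. Ifit2 had 73.7, 69.0 and 61.9 CPM in HLF KO libraries, against 22.4, 77.7 and 40.9 CPM in WT libraries. Its log2 fold change was 0.54 (SE 0.49), with 0.22 without WT library 1 and 1.12 without WT library 2. Ifit1 stood at 0.27 (SE 0.49), and at -0.03 without WT library 1. Ifit3, which has a near-identical copy in Ifit3b, had 111, 15 and 77 counts in HLF KO libraries and 0, 169 and 84 counts in WT libraries. Isg20 and the editing enzyme gene Adar, with 2 and 3 listed transcripts, had at most 24 counts and 0 counts in any library.

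**Figure D4:**
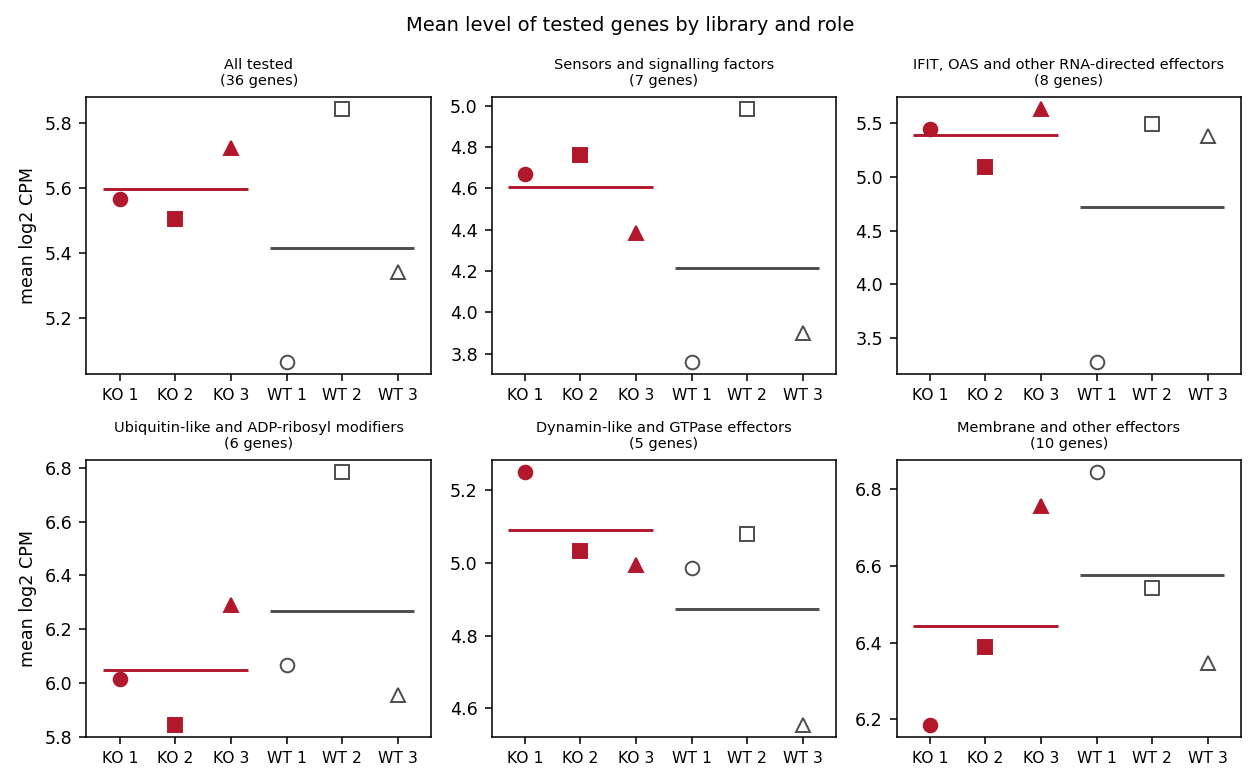
Mean log2 CPM over the tested genes of each role in each library, with filled red symbols for HLF KO, open grey symbols for WT and a line at each group's mean. The axes differ between panels. For the IFIT and OAS group WT library 1 stands at 3.28 and the other 5 libraries at 5.09 to 5.63. That library had 0 counts of Ifit3 and 1 of Oasl1, which weigh heavily on a log2 mean. Ifit1, Ifit2, Oas1a and Oas2 were also lowest there, and Oas3 (93.4 CPM) and Oasl2 were not.

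Modifiers of proteins had 2 positive and 4 negative values, with a median log2 fold change of -0.51. Isg15 is the ubiquitin-like tag and Usp18 the protease that removes it. Isg15 had 22.3, 11.2 and 58.1 CPM in HLF KO libraries, against 5.47, 24.8 and 15.4 CPM in WT libraries. HLF KO library 3 was the highest, and without it the log2 fold change of 1.00 (SE 0.80) was 0.15. Usp18 had the opposite sign at -0.78 (SE 0.61), and WT library 2, with 70.5 CPM, carried that value, which was -0.12 without it. Trim30a, a ubiquitin ligase of the TRIM family, had 126, 120 and 113 CPM in HLF KO libraries, against 146, 220 and 147 CPM in WT libraries. Every HLF KO value was below every WT value, with a log2 fold change of -0.51 (SE 0.28, edgeR adjusted p = 0.717).

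Parp9 and Dtx3l encode an ADP-ribosyltransferase and a ubiquitin ligase that work as a pair, and Parp14 lies beside them on chromosome 16. Dtx3l had 171, 202 and 151 CPM in HLF KO libraries and 180, 170 and 150 CPM in WT libraries, a log2 fold change of 0.07 (SE 0.26). Parp9 stood at -0.51 (SE 0.37), with 51.2 to 89.3 CPM in HLF KO libraries and 85.0 to 116 CPM in WT libraries. Parp14 stood at -0.72 (SE 0.36, edgeR adjusted p = 0.693), with 77.8 to 136 CPM in HLF KO libraries and 100 to 231 CPM in WT libraries. The annotations of Dtx3l and Parp9 overlap, which can cost reads of both.

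The 8 genes not tested were Irf7, Irf9, Isg20, Adar, Mx1, Mx2, Gbp7 and Tap1, 7 of them with several listed transcripts. Summed over the 6 libraries, the median count was 4519 for the 32 genes of the set that have 1 listed transcript and 35 for the 12 that have several. A count of 0 allows a level of up to 0.25 to 0.295 CPM in HLF KO libraries and 0.303 to 0.359 CPM in WT libraries, by counting error only. Because genes with several transcripts were low as a class in these files, their zeros are not read as absence of expression.

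Other genes of the pathway were taken from 6 lists. Of 116 listed genes 75 were tested, 0 passed edgeR's test and 0 passed DESeq2's. By edgeR at an unadjusted p under 0.05 there were 0 with higher and 12 with lower values in HLF KO, against 2.63% and 4.65% of all tested genes. The list of 49 further interferon-induced genes had 33 tested, 6 positive and 27 negative, with a median log2 fold change of -0.70 (-0.05 over all tested genes). Of these 33, 9 had lower values in every HLF KO library than in any WT library and 0 had higher values throughout, against 6.85% and 7.52% of all tested genes. The mean log2 CPM of these 33 genes was 4.38, 4.48 and 4.27 in HLF KO libraries and 4.99, 4.75 and 4.83 in WT libraries. The median was -0.47 without WT library 1 and -0.71 without WT library 3. The 6 lists were chosen with earlier results of these data known, so no conclusion is drawn from these shares and medians.

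Besides Irgm2, the genes of smallest p in that list were Uba7 and Cd274. Uba7, which activates ISG15 for transfer, had 329, 295 and 310 CPM in HLF KO libraries, against 609, 665 and 363 CPM in WT libraries. The groups did not overlap, with a log2 fold change of -0.81 (SE 0.25, edgeR adjusted p = 0.478). Cd274, the checkpoint ligand PD-L1, had 58.9, 93.1 and 84.1 CPM in HLF KO libraries, against 127, 184 and 135 CPM in WT libraries. Here too the groups did not overlap, with a log2 fold change of -0.92 (SE 0.32, edgeR adjusted p = 0.563).

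Receptors and kinases had 9 genes tested of 16, with 0 at an unadjusted p under 0.05. Ifnar1 stood at a log2 fold change of -0.49 (SE 0.35) and Ifnar2 at -0.57 (SE 0.68). The interferon gamma receptor genes Ifngr1 and Ifngr2 stood at 0.48 (SE 0.54) and -0.73 (SE 0.93), and the feedback inhibitor Socs3 at -0.89 (SE 0.80). Without WT library 1 Socs3 stood at 0.06, Ifngr1 at 0.02 and Ifnar2 at -0.08, and without WT library 2 Ifngr2 stood at 0.66. Socs1 had 2 counts in all and was not tested. Of 11 interferon genes 0 were tested. Ifnb1 and the listed Ifna and Ifnl genes were at 0, Ifnk had at most 6 counts in a library, and Ifng had 0 to 36 counts in HLF KO libraries and 0 to 15 in WT libraries.

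Of the IRF factors outside the set, Irf2, an antagonist of Irf1 at shared sites that is needed in mice to keep stem cells from interferon-driven exhaustion, had 97.8, 75.6 and 97.1 CPM in HLF KO libraries, against 148, 148 and 139 CPM in WT libraries. All HLF KO values were below all WT values, with a log2 fold change of -0.69 (SE 0.29, edgeR adjusted p = 0.653). Irf4, a factor of lymphocytes and plasma cells, had 164 CPM in WT library 3 and at most 9.05 CPM in the others. WT library 3 also had the highest sum of the plasma cell genes, most of it Jchain. Its log2 fold change of -4.86 was -1.26 without that library.

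Sensors upstream of interferon had 4 positive and 10 negative values. Aim2, a sensor of cytosolic DNA, had 64.8, 19.4 and 29.1 CPM in HLF KO libraries, against 116, 135 and 71.8 CPM in WT libraries. The groups did not overlap, with a log2 fold change of -1.51 (SE 0.49, edgeR adjusted p = 0.526). Ticam1, the adaptor of the RNA receptor TLR3, stood at -1.14 (SE 0.46), lower in every HLF KO library. Mb21d1 (cGAS), another DNA sensor, had the opposite sign at 0.94 (SE 0.51). In antigen processing 6 genes were positive and 6 negative. Nlrc5, the transactivator of MHC class I genes, stood at -0.68 (SE 0.27, lower in every HLF KO library), while the immunoproteasome subunit genes Psmb9 and Psmb8 stood at 0.39 (SE 0.21, higher in every HLF KO library) and 0.54 (SE 0.33).

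**Figure D5:**
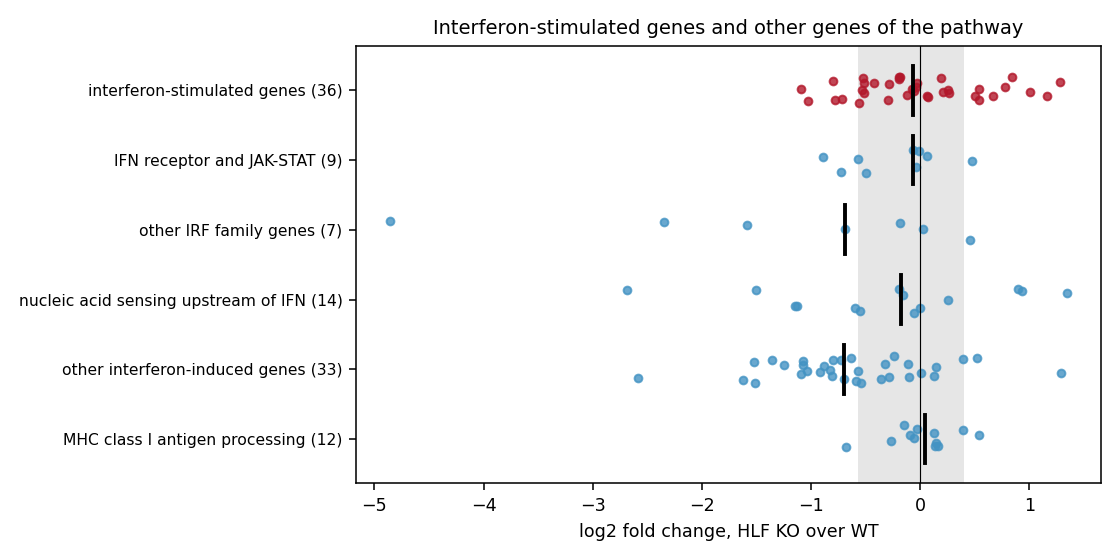
Log2 fold change, HLF KO over WT, of each tested gene in the interferon-stimulated set (red) and in 5 lists of other pathway genes (blue), with the number tested in parentheses and a black bar at each median. The grey band spans the 25th to 75th percentile of all tested genes. The set is centred at -0.07 and the other interferon-induced genes at -0.70. Both were chosen with earlier results of these data known, so no conclusion is drawn from this difference.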

How the data were processed

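Each deposited file lists, per the file headers and values, raw read counts for RefSeq transcripts as the authors made them. The submitters' processing notes name TopHat and build mm9. The TopHat version, counting tool, annotation release, strand use and treatment of shared reads were not given in the sources used here. All 6 libraries listed 30858 transcripts. Symbols came from RefSeq (GRCm38.p6) for 30363 and GENCODE cross-references for 179, and counts were summed per gene. Because the builds differ, coordinates are given only for the printed RefSeq promoters.

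Genotypes were compared with the robust quasi-likelihood test of edgeR 4.0.16 (R 4.3.3), with TMM scaling, no covariates and a filterByExpr minimum count of 10, adjusted by Benjamini-Hochberg over 10204 genes and tested on simulated data. CPM values are TMM-scaled, with a prior count of 2 on the log2 scale. Levels per kilobase used the GENCODE length of the listed transcript with most counts. DESeq2 1.42.0, limma 3.58.1 and other filters were alternatives. The 44 genes and the lists were chosen with earlier results of these data known. Values in every library are given for tested genes of the 44 with an unadjusted p under 0.05, no overlap between genotypes, a level among the 12 highest per kilobase or 1 library over 5 times the median of the others, and for further genes, in the set or the other lists, chosen after their values were seen. In each other list the 3 genes of smallest p are named, with Socs1 and the interferon receptors, apart from genes that are not reported here.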

Additional observations from a re-analysis of the deposited data

How the results depend on the processing

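The count of changed genes was 0 of the tested interferon-stimulated genes under all 13 alternatives, and the smallest adjusted p among them was 0.296 (Oasl2 without WT library 3). The median log2 fold change moved from -0.07 to 0.06 under limma-voom and under the replicate block, as did that of all tested genes (0.06 in both), and lay between -0.125 (without HLF KO library 3) and 0.221 (without WT library 2, with all tested genes at -0.005) with 1 library left out. Shared library numbers did not pair the samples (correlations of same-numbered deviations -0.01, -0.022 and 0.02). The replicate block gave 0 changed genes as well. Of the 36 genes, 18 kept their sign under every alternative. Signs turned under limma-voom for Ifih1 (0.28), Irf1 (1.93), Ifit3 (0.93), Oas1a (0.03), Oas2 (0.10), Iigp1 (0.03) and Xaf1 (0.03), and under the replicate block for Ifih1 (0.21), Irf1 (2.10), Oas1a (0.06), Oas2 (0.15) and Iigp1 (0.09); the cause was not tested. With 1 library left out, values spanned -1.08 to 0.69 for Ifih1, -0.06 to 0.35 for Zbp1, -1.38 to 3.02 for Irf1, -0.03 to 0.73 for Ifit1, -1.13 to 0.40 for Ifit3, -0.33 to 0.28 for Oas1a, -0.47 to 0.42 for Oas2, -0.43 to 0.16 for Oas3, -0.03 to 0.17 for Dtx3l, -0.48 to 0.20 for Gbp3, -0.42 to 0.31 for Igtp, -0.75 to 0.70 for Iigp1, -0.16 to 0.29 for Ifitm2, -0.50 to 0.08 for Bst2, -0.03 to 0.49 for Rsad2, -0.69 to 0.33 for Ifi44, -0.36 to 0.24 for Xaf1 and -0.36 to 0.08 for Lgals3bp. For the further interferon-induced genes, an alternative chosen after seeing the data, the median was -0.47 to -0.72 with 1 library left out, -0.52 under limma-voom and -0.54 under the replicate block. Counting error is largest for the genes of few counts.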

Other observations

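Ratios of related genes within a library do not depend on how libraries are scaled. These pairs were chosen after their values were seen. The count of Irgm1 was 0.928, 0.90 and 1.72 times that of Irgm2 in HLF KO libraries 1 to 3, against 0.339, 0.251 and 0.302 times in WT libraries 1 to 3. The ratio averaged 1.18 ± 0.47 in HLF KO and 0.297 ± 0.044 in WT (SD, n = 3 each), a log2 difference of 1.93. An exact permutation test, two-sided, gave p = 0.1, which is the lowest value possible with 3 libraries a group. Any pair whose ratios do not overlap gives this value. Since the pairs were chosen with their values known, no conclusion is drawn from it. Ifitm2 had 0.65, 0.693 and 0.725 times the counts of Ifitm3 in HLF KO libraries, against 0.503, 0.535 and 0.593 times in WT libraries. The log2 difference was 0.34. In both pairs every HLF KO library was above every WT library. The part of reads shared between these related genes was not tested.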
